A study of Homo sapiens with 8 samples.

Results

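The histone genes of MDA-MB-231 cells were examined after treatment with c-di-GMP. They were taken as all rows of the deposited count and FPKM tables that are annotated as protein-coding and whose names start with HIST1H, HIST2H, HIST3H, HIST4H, H1F, H2AF or H3F. This gave 42 genes of 18059 listed in either table, of which 33 carry a cluster name (HIST) and are here called replication-dependent, and 9 carry a variant name (H1F, H2AF or H3F). The replication-dependent genes comprised 2 H1, 9 H2A, 9 H2B, 5 H3 and 8 H4 genes, and no HIST3H gene was listed. The variants were the linker histones H1F0 and H1FX, the H2A forms H2AFJ, H2AFV, H2AFX, H2AFY and H2AFZ, and the H3.3 genes H3F3A and H3F3B.

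MDA-MB-231 is a human breast cancer cell line of mesenchymal character, and c-di-GMP is a bacterial cyclic dinucleotide that mammalian cells bind through STING. Total RNA was sequenced from 4 libraries of cells given 5 µM c-di-GMP and from 4 libraries of cells given vehicle (phosphate-buffered saline), both for 24 h. Both groups were kept in the same serum-containing medium with antibiotics. Separate cultures are not mentioned for the libraries within a group. The p-values therefore cover library-to-library spread only, and part or all of it may be technical. The kit is named as NEBNext Ultra RNA, but whether RNA was selected by its poly(A) tail is not given in the sources used here.

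Histones package DNA into nucleosomes, with H2A, H2B, H3 and H4 in the core and H1 on the linker. The replication-dependent genes are transcribed mainly in S phase, and their mRNAs end, without a poly(A) tail, after a conserved stem-loop that is bound by the stem-loop binding protein SLBP. Variant genes are transcribed throughout the cell cycle, most of them give polyadenylated mRNAs, and their proteins replace the replication-dependent forms at particular sites or after replication. A poly(A) selection would recover the tailless mRNAs poorly, so levels of the classes are compared here as measured and not as amounts in the cell.

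Where annotated sequence allowed a search, the 3′ stem-loop was found mainly in the replication-dependent class. The stem-loop was searched as GG, any 2 bases, CTTTT, any base, AG, any 2 bases and CC, on the transcript strand within 200 bases after the coding region of GENCODE v29 transcripts. It was found in 17 of the 20 replication-dependent genes that have any annotated sequence there, whereas the gene models of the other 13 end with the coding region. It was absent from HIST1H2BJ, searched over 200 bases, and from HIST1H1E and HIST1H4C, with 57 and 51 bases annotated. Among the variants it was found in 1 of 9, H2AFX, the source of the DNA damage mark γH2AX. Of 19436 protein-coding genes with annotated sequence after the coding region, 33 held the motif (0.17%), and all but TIPARP were histone genes by the naming rule. The sites of the replication-dependent genes with the most reads among those with an annotated site are shown beside that of H2AFX, 5′ to 3′ with T for U, and the capitals mark the 16 bases of the motif.
HIST1H2AC: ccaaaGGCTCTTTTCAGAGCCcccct
HIST1H2BD: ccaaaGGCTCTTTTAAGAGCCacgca
HIST1H4I: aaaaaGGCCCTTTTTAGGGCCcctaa
HIST1H4H: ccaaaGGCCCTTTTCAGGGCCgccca
HIST2H2BE: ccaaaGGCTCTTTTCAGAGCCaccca
H2AFX: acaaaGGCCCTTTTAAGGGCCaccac

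HIST1H1C and HIST1H2BK, the replication-dependent genes with the most reads, are among the 13 genes with no annotated sequence past the coding region. For them no site could be looked for, and reads beyond the stop codon were not countable with these gene models.

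Promoters were read from RefSeq sequences of build GRCh38.p14, from 250 bases before to 50 bases after 1 start site per gene, and 34 of the 42 genes were matched. The motif CCAAT was found on either strand in 21 of 26 replication-dependent promoters (80.8%) and in 6 of 8 variant promoters (75%), against 35.7% of all 27305 promoters. The motif TATAAA was found in 80.8%, 50% and 12% of them. The octamer ATTTGCAT, the binding sequence of OCT1, was found in 12 of 26 replication-dependent promoters (46.2%). All of these were H2B (7 of 9) or H2A (5 of 6) promoters, and no replication-dependent H1, H3 or H4 promoter held it. Among the variants only the H3.3 gene H3F3B held it (12.5% of the variant promoters), against 1.8% of all promoters. The promoter windows of HIST1H2BC and HIST1H2AC overlap, as do those of HIST1H2BJ and HIST1H2AG and of HIST2H2BE and HIST2H2AC. Each of these pairs shares the same octamer, so the H2A and H2B numbers are not independent. Matches of the other motifs in the shared bases were likewise counted for both genes. A match describes these letters only and is no evidence of binding. The promoters of HIST1H2BK and H2AFX are shown because both genes had lower counts under c-di-GMP before the correction for GC content described further on. They lie at chr6:27146809-27147108 and chr11:119095416-119095715, both on the minus strand, and capitals mark every match of the 3 motifs on either strand, with TATAAA and its reverse complement overlapping once in HIST1H2BK.
HIST1H2BK: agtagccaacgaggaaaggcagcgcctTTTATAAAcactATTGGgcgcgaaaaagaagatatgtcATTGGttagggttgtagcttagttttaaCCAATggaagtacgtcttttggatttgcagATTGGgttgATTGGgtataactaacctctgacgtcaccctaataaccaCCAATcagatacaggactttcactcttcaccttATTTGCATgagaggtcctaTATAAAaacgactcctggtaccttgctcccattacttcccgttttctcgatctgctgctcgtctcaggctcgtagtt
H2AFX: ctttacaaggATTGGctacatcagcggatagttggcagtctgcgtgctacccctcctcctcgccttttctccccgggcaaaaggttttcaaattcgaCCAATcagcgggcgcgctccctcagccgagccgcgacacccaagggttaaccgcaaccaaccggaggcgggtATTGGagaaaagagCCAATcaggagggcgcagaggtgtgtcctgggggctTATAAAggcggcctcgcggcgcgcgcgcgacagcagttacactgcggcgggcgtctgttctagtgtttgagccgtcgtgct

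On GRCh38, 26 of the replication-dependent genes lie on chromosome 6 between positions 26020490 and 27893843, 6 lie on chromosome 1 between 149782689 and 149887364, and HIST4H4 lies on chromosome 12. The 9 variants lie on 9 different chromosomes. Of the listed replication-dependent genes, 4 H2B genes stand head to head with an H2A gene: HIST1H2BC with HIST1H2AC (218 bases between the annotated starts), HIST1H2BJ with HIST1H2AG (291 bases), HIST2H2BE with HIST2H2AC (322 bases) and HIST1H2BK with HIST1H2AH (330 bases). The replication-dependent gene models were short and GC-rich, with a median exonic length of 549 bases and a median GC content of 59.1%. The variants had medians of 3146 bases and 49.1%, and all listed protein-coding genes had medians of 5105.5 bases and 48.3%.

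The libraries held 16151360 to 18040010 counts. CPM below divides a gene's counts by the library size after TMM scaling, which adjusts for differences in composition, unless library totals are named. The limit allowed by a count of 0, taken as 3 counts, was 0.166 to 0.186 CPM by library totals. Among them vehicle replicate 3 was unlike the rest. Its TMM scaling factor was 0.664, against 1.05 to 1.07 in the others, and its counts summed to 146% of the read number implied by its FPKM values, against 92.4% to 94.4%. FPKM levels are therefore given for the other 7 libraries, and each test is given for all 8 libraries and for the 7. Of the line's markers, VIM, CD44, AXL, CAV1 and KRT18 lay between 76.2 and 241 FPKM in the 7 libraries, CDH1 was at 0.30 to 0.63 FPKM, EPCAM at 4.36 to 5.94, GATA3 at 2.62 to 3.96 and the endothelial PECAM1 at 1.03 to 1.24. SPARC, ESR1, PGR, PTPRC, CD3E, CDH5 and HBB were not among the rows of the FPKM table.

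FPKM, which scales reads to gene length and library size, put 9 histone genes above 30 FPKM. H2AFZ, whose product H2A.Z flanks active promoters, had the highest mean over the 7 libraries at 141 ± 13.5 FPKM (SD, n = 7), next to HIST1H2BK at 139 ± 10.7. Their ranges overlapped (122 to 156 and 123 to 155 FPKM), so that neither could be put first. H2AFX followed at 91.4 to 132 FPKM, H1F0, a linker histone linked to differentiation and quiescence, at 88.2 to 98.6, H3F3B at 61.4 to 69.2, H2AFV at 49.5 to 59.2, H3F3A at 38.4 to 52.7, HIST1H1C at 38.9 to 48.4 and H1FX at 31.6 to 44.8. Neighbours in this order overlapped in range, except H1F0 and H3F3B, and H3F3B and H2AFV, which did not. H3F3A and H3F3B encode the same H3.3 protein, and H3F3B was the higher in each of the 7 libraries.

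The middle of the order held H2AFY, which encodes macroH2A1, at 13.3 to 14.4 FPKM, HIST1H2BD at 12.6 to 14.6, HIST1H2AC at 8.63 to 11.1, HIST1H4I at 8.12 to 11.3 and H2AFJ at 7.34 to 8.04. H2AFY and HIST1H2BD overlapped, as did HIST1H2AC and HIST1H4I, and the steps between these pairs and down to H2AFJ did not. All 9 variants thus had at least 7.34 FPKM in each of the 7 libraries. Of the replication-dependent genes, 5 had a mean above 10 FPKM, 1 of them in each of H1, H2A and H4 and 2 in H2B. The highest H3 gene, HIST1H3C, had 1.42 to 3.47 FPKM. The other replication-dependent genes in the FPKM table had means between 0.10 and 3.10 FPKM, and 10 of them were listed there only. The FPKM values of those 10 gave back 5 to 37 whole reads over the 7 libraries, and 13 to 48 over all 8.

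Head-to-head neighbours were at different levels. HIST1H2BK and HIST1H2AH, which share the interval that holds the first of the printed promoters, had means of 139 and 0.64 FPKM, and both gene models consist of the coding region only. HIST1H2AC and HIST1H2BC had means of 10.3 and 1.62 FPKM, HIST2H2AC and HIST2H2BE had 2.16 and 0.91, and HIST1H2BJ and HIST1H2AG had 3.10 and 0.84.

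**Figure D1:**
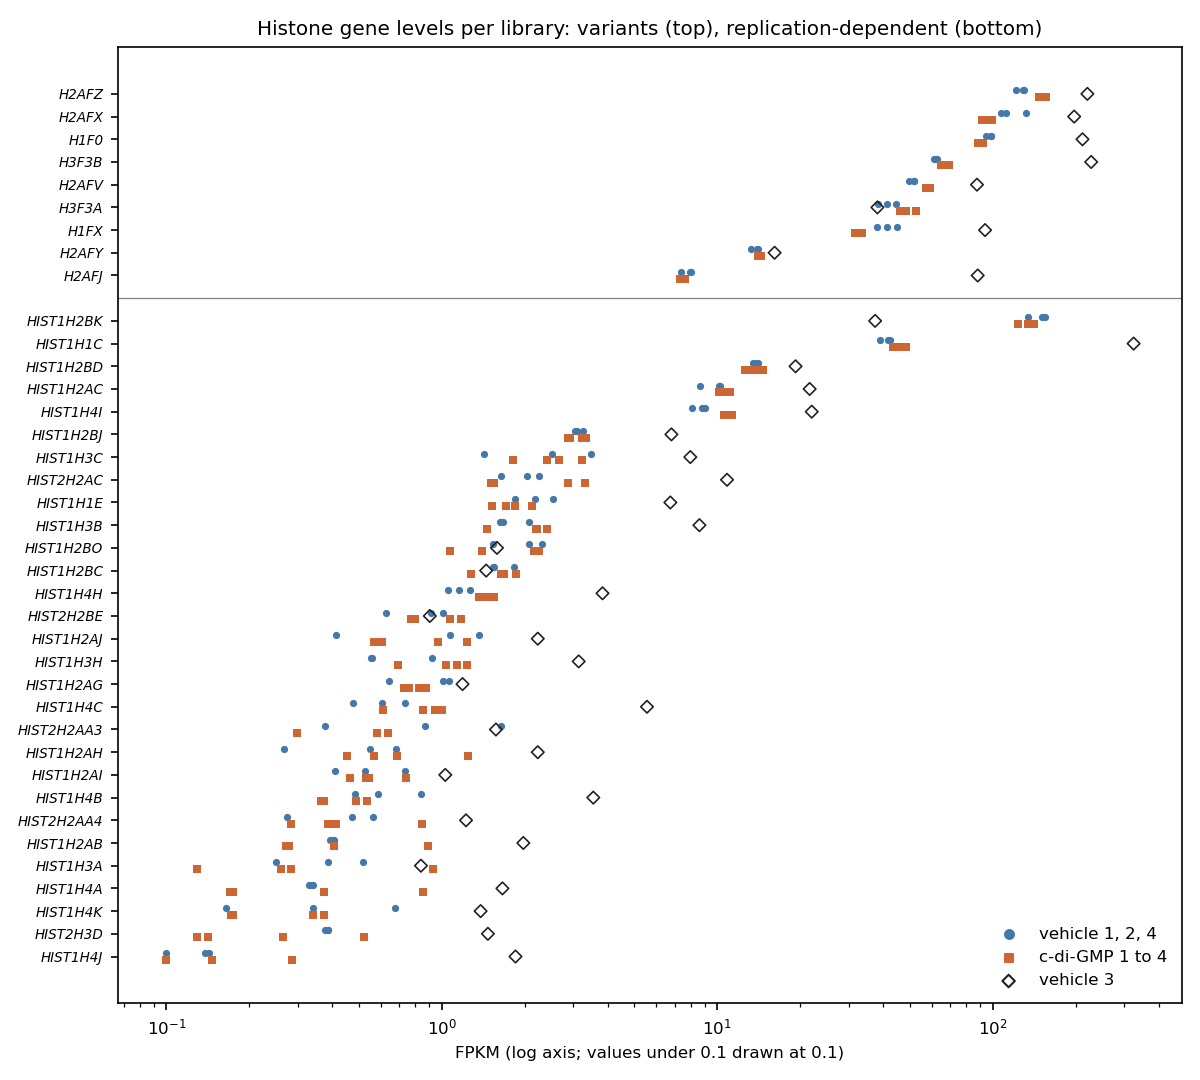
FPKM (log axis) of the 38 histone genes in the FPKM table, 1 row per gene, variants above the line and replication-dependent genes below it. Circles are vehicle replicates 1, 2 and 4, squares are c-di-GMP replicates 1 to 4 and open diamonds are vehicle replicate 3, which lies outside the other 7 for most genes and far above them for HIST1H1C (324 FPKM) and H2AFJ (88.1 FPKM).

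Some of these levels depend on how near-identical sequences were counted. Of the 50-base windows of HIST1H2BK, 74.1% occur in another gene, mostly other H2B genes, and the reads of HIST1H2BK are therefore uncertain. The same holds for HIST2H2AA3 (100%), HIST2H2AA4 (97.1%), HIST1H4K (100%), HIST1H4J (81.2%), HIST1H2AJ (83.7%), HIST1H2AI (62.3%) and HIST2H3D (80.4%). The windows of H1F0, HIST1H1C, H2AFJ and HIST1H4H occur in no other gene, and those of H2AFX and HIST1H4I in under 1% of cases (0.311% and 0.562%). Of the described genes, H1FX, H2AFY, H2AFZ, H3F3A, H3F3B, HIST1H2BD and HIST1H2BN overlap genes on the opposite strand, and whether counting used the strand is not given in the sources used here, so their counts may include reads of those genes.

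The share of the replication-dependent class among histone counts was 7.43%, 7.54% and 7.04% in vehicle replicates 1, 2 and 4 and 8.16% in vehicle replicate 3. It was 7.41%, 7.08%, 7.14% and 7.04% in c-di-GMP replicates 1 to 4. The 2 groups overlapped, and vehicle replicate 3 was the highest library. There, HIST1H1C alone gave 2412 of the 4092 replication-dependent counts, and HIST1H2BK gave 165. In vehicle replicates 1, 2 and 4, HIST1H1C gave 473, 517 and 512 counts and HIST1H2BK 1085, 1143 and 965. Without vehicle replicate 3 the means were 7.34% ± 0.27 (SD, n = 3) and 7.17% ± 0.17 (SD, n = 4). The log2 ratio of replication-dependent to variant counts was then lower by 0.04 under c-di-GMP (-3.66 ± 0.06 in vehicle, -3.70 ± 0.04 in c-di-GMP). With H2AFX, the variant with the stem-loop, counted among the replication-dependent genes, the shares were 17.1% ± 1.14 (SD, n = 3) and 14.8% ± 0.23 (SD, n = 4), and the difference in the log2 ratio was -0.25. These sums of counts carry no correction for GC content, and H2AFX itself differed by -0.31 on the log2 scale without such a correction, by 0.08 with it and by -0.01 with a further one for gene length. In bulk RNA, fewer cells in S phase and less histone mRNA per cell cannot be told apart. On the FPKM scale, per length, the replication-dependent class took 30.5% ± 1.08 (SD, n = 3) of the histone sum in vehicle and 29.8% ± 0.50 (SD, n = 4) in c-di-GMP. Vehicle replicate 3 was not the highest on that scale, at 29.9%, within the 29.3% to 31.6% of the other libraries.

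With all 8 libraries no histone gene passed edgeR's quasi-likelihood test, which called 0 of 15415 genes at an adjusted p under 0.05 (0%). Of the 42 histone genes, 32 were in the count table and 26 passed the filter on low counts, 17 replication-dependent genes and the 9 variants. The genes that did not pass it were HIST1H2AJ, HIST2H2AA3, HIST1H2BE, HIST2H2BF, HIST1H4C and HIST4H4. At an unadjusted p under 0.05 there were 3 histone genes, H2AFX, H1FX and H3F3A, and 960 genes in all. DESeq2 called 134 of the 15415 genes (0.869%) and limma-voom 0, none of them a histone gene. However, DESeq2 gave no adjusted p for at least the tested replication-dependent H1 and H3 genes, so it could not call these. The median log2 fold change of the 26 genes was -0.31, against -0.05 over all genes tested. Negative values were found for 22 of the 26 histone genes and for 8562 of the 15415 genes tested.

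The negative values of the histone genes went together with vehicle replicate 3. On the scale of CPM after TMM scaling it was above all 7 other libraries for 24 of the 32 counted histone genes and below all of them for 3, against 41.9% and 44.9% of all 16383 genes in the count table. It was at least 2-fold above the mean of the other vehicle libraries for 18 histone genes and at least 2-fold below it for 3 (24.1% and 28% of all genes). Scaled by library totals alone, the histone numbers were 17 above and 9 below all others, with 9 and 3 past 2-fold. On that scale 25.8% of all genes were above and 61.5% below all others, with 13.5% and 43.7% past 2-fold. H2AFY, HIST1H2BD, HIST1H2AG and HIST2H2BE were above the mean of the other vehicle libraries with TMM and below it with library totals.

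H2AFJ stood farthest among the variants, at 306 CPM in vehicle replicate 3 and 24.8 to 27.3 CPM in the other 7 libraries. HIST1H1C was at 216 CPM there and at 25.3 to 31.1 CPM elsewhere, and H3F3B was at 1445 and 381 to 425 CPM. For these 3 genes vehicle replicate 3 was the higher library under both scalings. HIST1H2BK went the other way, at 14.8 CPM in vehicle replicate 3 and 47.0 to 59.6 CPM elsewhere. HIST1H4C, under the filter in both fits, was at 2.50 CPM there and 0.21 to 0.44 CPM elsewhere, or 28 reads against 4 to 8. With 1 such library, no condition could be tested from these values.

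**Figure D2:**
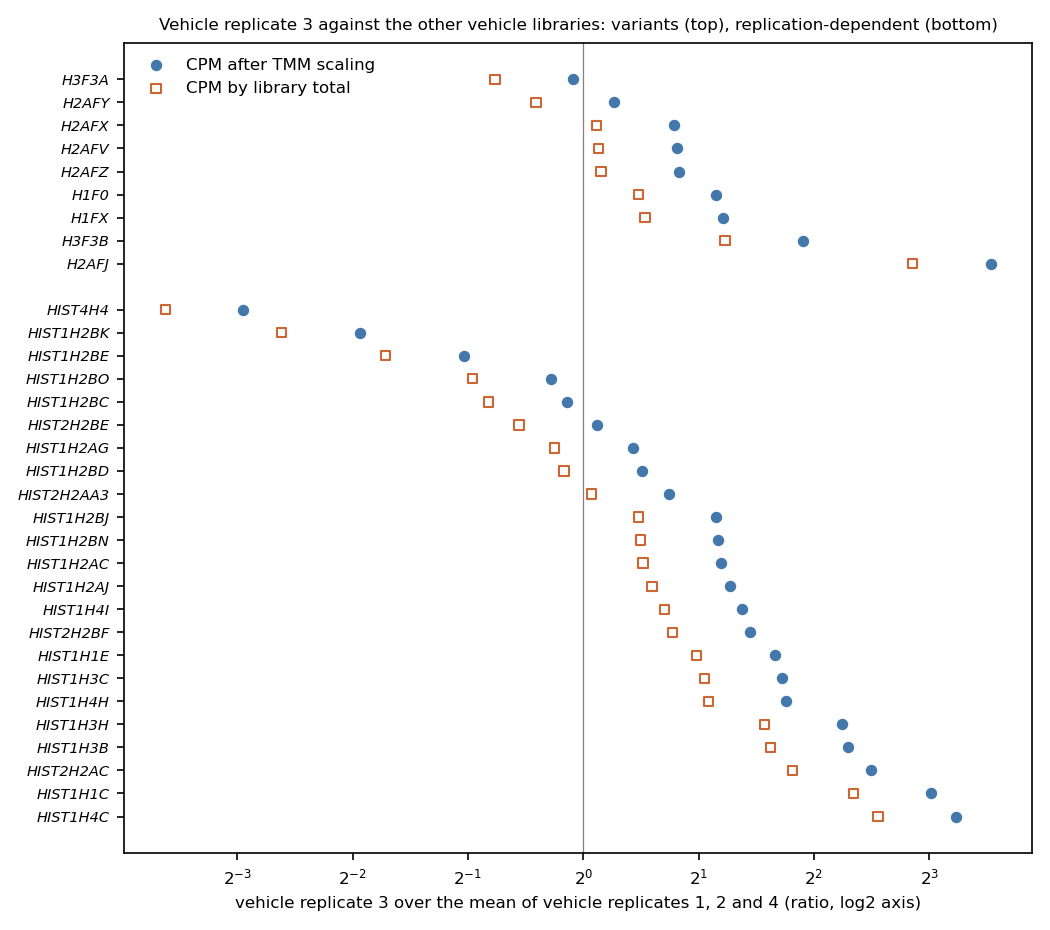
CPM of vehicle replicate 3 divided by the mean of vehicle replicates 1, 2 and 4 (log2 axis) for the 32 histone genes of the count table, variants above and replication-dependent genes below. Filled circles use TMM scaling and open squares library totals. H2AFJ, HIST1H4C and HIST1H1C are the farthest above 1 and HIST4H4 and HIST1H2BK the farthest below it under both scalings.

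Without vehicle replicate 3, 8 of the 26 tested histone genes passed the threshold, 4 higher and 4 lower under c-di-GMP, against 4633 of 15647 genes (29.6%, with 13.5% higher and 16.2% lower). The share of histone genes, 30.8%, was near that background. The variants held 6 of the 8 calls, 3 higher and 3 lower of 9 tested, and the replication-dependent genes 1 higher and 1 lower of 17. Read depth differed between the classes, since all 9 variants and only 5 of the 17 replication-dependent genes had a mean of at least 200 counts. Of genes at that depth, 1992 were called higher and 2054 lower of 9532 (42.4%), beside 2 of the 5 replication-dependent genes and 6 of the 9 variants. The median log2 fold change was 0.12 for the replication-dependent genes, 0.03 for the variants and 0.00 over all genes tested.

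H2AFZ was higher in every c-di-GMP library than in vehicle replicates 1, 2 and 4. Levels from here on are CPM after TMM scaling over the 7 libraries, which puts them slightly above the CPM scaled over all 8. The vehicle libraries (replicates 1, 2 and 4, in this order here and below) had 302, 320 and 319 CPM. The c-di-GMP libraries (replicates 1 to 4) had 368, 359, 380 and 369 CPM, and the groups did not overlap. Such separation was common, since the groups of these 7 libraries did not overlap for 5624 of 16383 counted genes (34.3%). H2AFZ rose by 0.24 ± 0.04 on the log2 scale (SE, edgeR adjusted p = 0.000123), a 1.18-fold change. This did not hold with all 8 libraries, where the difference was -0.02 (edgeR adjusted p = 0.98). Scaled over all 8, vehicle replicate 3 had 526 CPM, above the 338 to 360 CPM of the c-di-GMP libraries. H2AFV encodes H2A.Z.2, a near-identical H2A.Z protein, and was at 253, 263 and 266 CPM in vehicle and at 292, 289, 294 and 299 CPM in c-di-GMP. The groups did not overlap here either, and H2AFV rose by 0.17 ± 0.04 (SE, edgeR adjusted p = 0.00195). With all 8 libraries its difference was -0.07 (edgeR adjusted p = 0.898), with vehicle replicate 3 at 431 CPM.

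H3F3A was at 130, 150 and 140 CPM in vehicle and at 162, 154, 176 and 160 CPM in c-di-GMP, with no overlap. It rose by 0.22 ± 0.05 (SE, edgeR adjusted p = 0.00216). H3F3B was at 405, 409 and 413 CPM in vehicle and at 434, 422, 450 and 446 CPM in c-di-GMP. Its groups did not overlap, but the difference of 0.10 ± 0.04 (SE) did not pass the threshold (edgeR adjusted p = 0.0649), and it passed without c-di-GMP replicate 2 (0.12, adjusted p = 0.0406).

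H1FX, a GC-rich linker histone gene, showed the farthest negative value of the tested histone genes. It was at 72.7, 61.4 and 67.1 CPM in vehicle and at 53.5, 50.5, 53.0 and 51.0 CPM in c-di-GMP, with no overlap. It fell by 0.37 ± 0.06 on the log2 scale (SE, edgeR adjusted p = 3.21e-05). H2AFX was at 229, 184 and 194 CPM in vehicle, with replicate 1 the highest, and at 163, 157, 170 and 162 CPM in c-di-GMP, again without overlap. It fell by 0.31 ± 0.05 (SE, edgeR adjusted p = 0.000154). H1F0 was at 249, 238 and 248 CPM in vehicle and at 222, 222, 229 and 220 CPM in c-di-GMP. It fell by 0.13 ± 0.04 (SE, edgeR adjusted p = 0.0132), and without vehicle replicate 4 it missed the threshold (-0.13, adjusted p = 0.0531).

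The remaining variants, H2AFJ and H2AFY, did not pass. H2AFJ was at 28.7, 28.9 and 26.7 CPM in vehicle and at 27.0, 26.8, 26.8 and 26.2 CPM in c-di-GMP, a difference of -0.07 with an approximate 95% interval from -0.19 to 0.05. H2AFY was at 267, 264 and 254 CPM in vehicle and at 265, 265, 270 and 268 CPM in c-di-GMP, a difference of 0.03 with an interval from -0.05 to 0.11. Both genes' groups overlapped.

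Of the replication-dependent genes, HIST1H4I rose when vehicle replicate 3 was left out. With all 8 libraries its difference was -0.15 (edgeR adjusted p = 0.873). Scaled over all 8, vehicle replicate 3 had 29.5 CPM, above the 13.7 to 14.6 CPM of the c-di-GMP libraries. This H4 gene at chr6:27138588-27139881 was at 11.3, 12.2 and 12.6 CPM in vehicle and at 15.5, 14.6, 15.5 and 15.1 CPM in c-di-GMP. The groups did not overlap, and the difference was 0.33 ± 0.08 (SE, edgeR adjusted p = 0.00412). HIST1H4I did not pass with corrections for GC content and length (0.19, edgeR adjusted p = 0.108) or with the replicate block and the GC correction (0.28, adjusted p = 0.0512). The other tested H4 gene, HIST1H4H, had 2.44, 2.93 and 2.69 CPM in vehicle and 3.53, 3.14, 3.39 and 3.30 CPM in c-di-GMP, likewise without overlap. Its difference of 0.31 ± 0.17 (SE) did not pass at that depth (edgeR adjusted p = 0.167).

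HIST1H2BK passed with a lower value, but narrowly. It was at 61.6, 63.1 and 55.3 CPM in vehicle and at 56.7, 49.9, 54.6 and 54.5 CPM in c-di-GMP, and the groups overlapped. The difference was -0.15 ± 0.06 (SE, edgeR adjusted p = 0.0448). The call was lost without vehicle replicate 1 or 2 or c-di-GMP replicate 2, 3 or 4 (adjusted p 0.0682 to 0.168 without each). It was also lost by DESeq2 (adjusted p = 0.0612) and with the replicate block (edgeR adjusted p = 0.0636). On log2 FPKM limma did not call it either (adjusted p 0.115 to 0.149). With all 8 libraries the difference was 0.14 (edgeR adjusted p = 0.892).

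The other described H2B genes did not pass. HIST1H2BD was at 13.1, 13.1 and 12.7 CPM in vehicle and at 13.5, 11.7, 13.0 and 12.4 CPM in c-di-GMP, with a difference of -0.03 and an interval from -0.20 to 0.14. HIST2H2BE had 42, 39 and 26 counts in vehicle and 44, 31, 33 and 44 counts in c-di-GMP. HIST1H2BN had the largest positive value of the tested histone genes, 0.59 ± 0.26 (SE, edgeR adjusted p = 0.0921), from 1.42, 1.16 and 1.09 CPM in vehicle and 2.47, 1.74, 1.98 and 1.19 CPM in c-di-GMP. Its groups overlapped, and without c-di-GMP replicate 4 it passed (0.74, adjusted p = 0.0354).

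The H1 and H2A genes of the replication-dependent class did not pass before correction. HIST1H1C, which encodes linker histone H1.2, was at 26.9, 28.6 and 29.3 CPM in vehicle and at 29.4, 31.1, 32.9 and 29.6 CPM in c-di-GMP, narrowly without overlap, with a difference of 0.12 ± 0.06 (SE, edgeR adjusted p = 0.159). HIST1H1E, which encodes H1.4, was at 1.76, 1.49 and 2.06 CPM and at 1.36, 1.22, 1.69 and 1.48 CPM. The H2A gene HIST1H2AC was at 18.4, 18.1 and 15.5 CPM and at 19.6, 19.2, 17.9 and 19.2 CPM, with a difference of 0.13 and an interval from -0.02 to 0.28. HIST2H2AC, at 0.62 to 1.36 CPM in all 7 libraries, overlapped between the groups, as did HIST1H1E and HIST1H2AC.

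None of the 3 tested H3 genes passed, and all were shallow. HIST1H3H, named after its values were seen, had the largest value of them, 0.57 ± 0.29 (SE, edgeR adjusted p = 0.147). It was at 0.74, 1.22 and 0.74 CPM in vehicle and at 1.48, 1.63, 1.35 and 0.91 CPM in c-di-GMP, and the groups overlapped. HIST1H3C had 0.63 to 1.53 CPM in vehicle and 0.80 to 1.41 CPM in c-di-GMP, and the interval of its difference ran from -0.57 to 0.61. HIST1H3B had 0.72 to 0.92 CPM and 0.64 to 1.05 CPM, with an interval from -0.41 to 0.79.

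**Figure D3:**
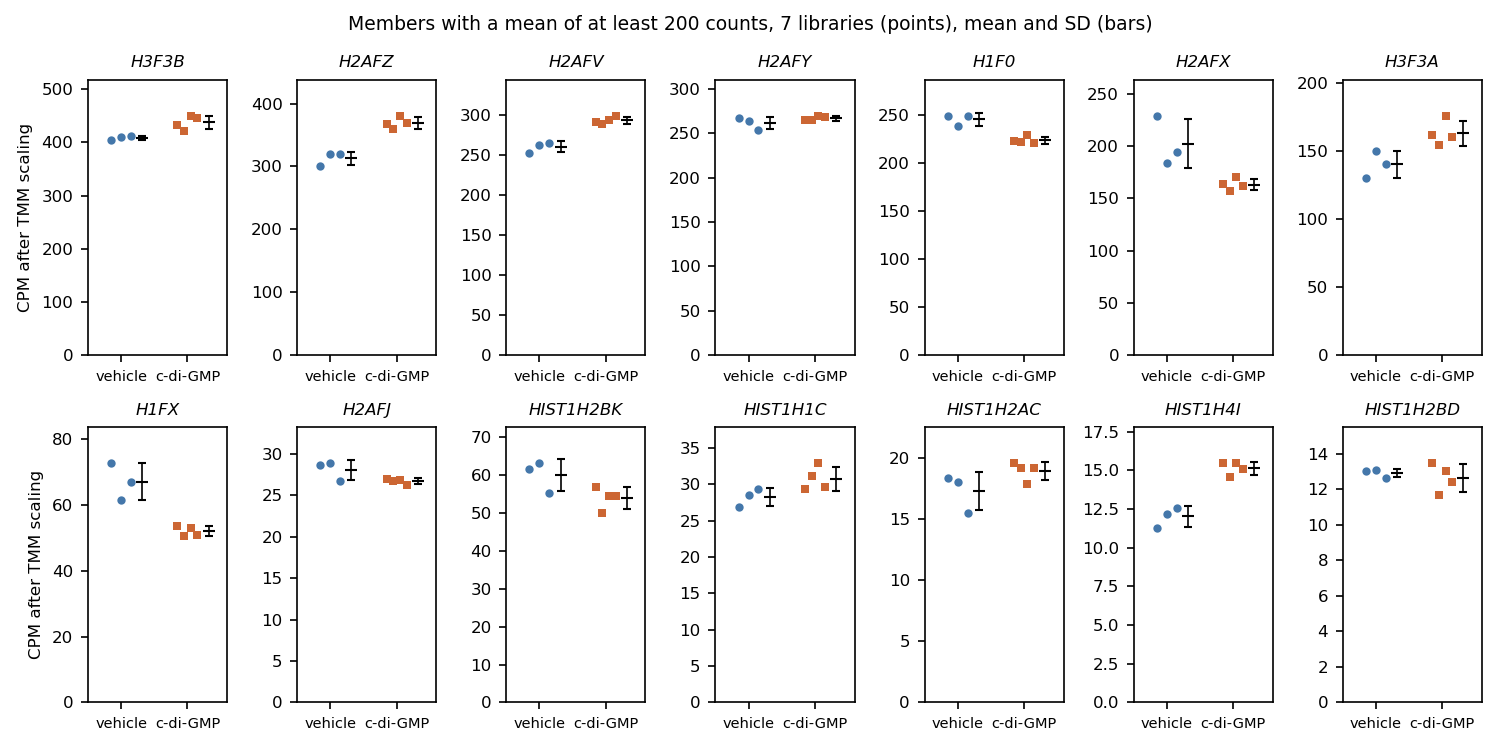
CPM after TMM scaling of the 14 histone genes with a mean of at least 200 counts, in vehicle replicates 1, 2 and 4 (circles) and c-di-GMP replicates 1 to 4 (squares), with the mean and SD of each group (black). H2AFZ, H2AFV, H3F3A and HIST1H4I lie higher and H1FX, H2AFX and H1F0 lower in all 4 c-di-GMP libraries. H3F3B and HIST1H1C also lie higher there but fell short of the threshold. The HIST1H2BK groups overlap. In these 7 libraries the groups did not overlap for 34.3% of all genes in the count table.

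The called genes also differed in GC content, and a link of GC content to the calls was not tested. Among the calls, the genes with lower values had more GC than those with higher values. H1FX had 68.6%, H2AFX 66.4%, HIST1H2BK 61.2% and H1F0 53.2%. H2AFZ had 49.1%, HIST1H4I 46.8%, H2AFV 43.1% and H3F3A 40.5%. The uncalled genes with more GC than H1F0 went both ways. They were HIST2H2AC (0.19), HIST1H3B (0.19), HIST1H1C (0.12), HIST1H3C (0.02), HIST1H2BO (-0.21) and HIST1H1E (-0.29). After a correction of each library's trend on GC content, edgeR called 2379 of 15647 genes (15.2%, with 8.59% higher and 6.61% lower). Of the histone genes 4 were then called higher and 0 lower. H2AFZ rose by 0.23 ± 0.03 (SE, edgeR adjusted p = 2.68e-05) and HIST1H4I by 0.29 ± 0.08 (SE, edgeR adjusted p = 0.0141), close to their uncorrected values. H3F3B, at 0.12 ± 0.03 (SE, edgeR adjusted p = 0.0138), and HIST1H1C, at 0.27 ± 0.06 (SE, edgeR adjusted p = 0.00474), had not passed without the correction.

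The falls did not hold under the correction. H1FX, H2AFX and HIST1H2BK each changed sign, to 0.08 with edgeR adjusted p of 0.268, 0.134 and 0.358. H1F0 kept its direction at -0.07 but did not pass (edgeR adjusted p = 0.173), nor did H2AFV at 0.08 (adjusted p = 0.0684) or H3F3A at 0.10 (adjusted p = 0.0978). With a trend on gene length added, edgeR called 13.4% of all genes (7.67% higher and 5.74% lower) and, of the histone genes, H2AFZ (0.17) and H3F3B (0.13) higher and H1F0 (-0.13) and H2AFJ (-0.20) lower. H2AFZ was the one histone gene that passed in the same direction in the 7-library fit and under each of its 20 alternatives. Its values there were 0.17 to 0.25 on the log2 scale. With all 8 libraries its difference was -0.02 and did not pass (edgeR adjusted p = 0.98).

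**Figure D4:**
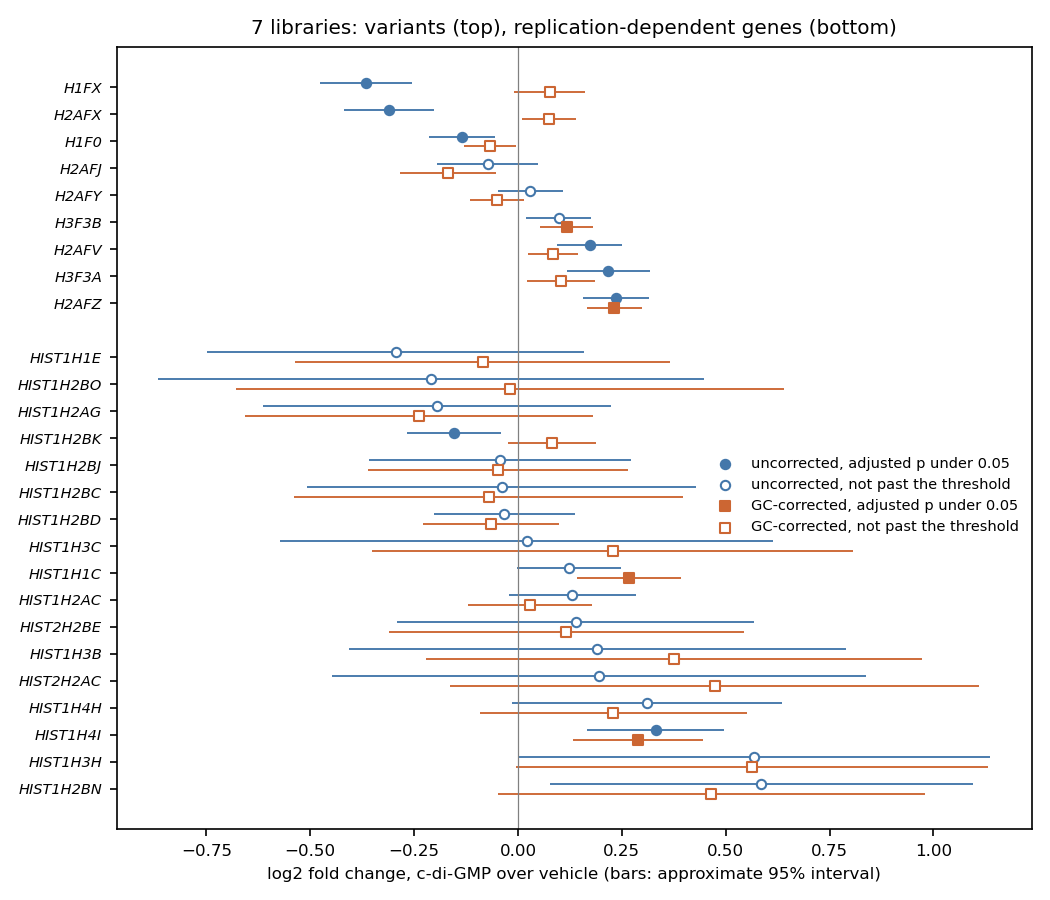
Log2 fold change of c-di-GMP over vehicle for the 26 tested histone genes, 7 libraries, with approximate 95% intervals, variants above and replication-dependent genes below. Circles are uncorrected and squares GC-corrected, filled where the edgeR adjusted p is under 0.05. H1FX and H2AFX move from -0.37 and -0.31 to 0.08, while H2AFZ stays at 0.24 and 0.23.

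The genes that make, end and degrade replication-dependent histone mRNA were listed with those of general 3′ end cleavage, 32 in all. Without vehicle replicate 3, 8 were higher and 4 lower of 32 tested, with a median log2 fold change of 0.03 beside 0.00 over all genes. That is 37.5% of the list, beside 29.6% of all genes tested and 42.4% of those with a mean of at least 200 counts. After GC correction the counts were 7 and 3, or 31.2% beside 15.2% and 22.8%. CPSF3, the endonuclease that cleaves histone pre-mRNA, rose from 58.7 ± 2.31 to 70.3 ± 2.28 CPM (SD, n = 3 and 4, edgeR adjusted p = 0.000388) and kept the call after correction (0.18, adjusted p = 0.00639). SNRPE, a core protein that the U7 particle shares with spliceosomal ones, rose from 52.7 ± 5.46 to 64.9 ± 4.72 CPM (edgeR adjusted p = 0.00115) and kept it too (0.26, adjusted p = 0.00313). CPSF1 fell from 186 ± 14.0 to 151 ± 4.86 CPM (adjusted p = 3.75e-05) and UPF1, which acts in histone mRNA decay, from 229 ± 15.2 to 193 ± 5.97 CPM (adjusted p = 0.000245), and neither passed after correction (-0.04 and -0.03). SLBP, the stem-loop binding protein itself, had 97.6 ± 1.31 CPM in vehicle and 104 ± 2.73 CPM in c-di-GMP and did not pass before correction (0.09, edgeR adjusted p = 0.111). It passed after it (0.12, adjusted p = 0.0259), but not with gene length added (0.05, adjusted p = 0.426). It was chosen for mention after its values were seen, for its role.

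Of 31 genes for histone chaperones and variant deposition, 30 were tested, and 11 were higher and 6 lower, with a median of 0.05. The share of 56.7% stands beside the same 29.6% and 42.4%. After GC correction 5 were higher and 2 lower, 23.3% of the list beside 15.2% and 22.8%. NPM1, a nucleolar histone chaperone, rose from 944 ± 35.4 to 1123 ± 24.4 CPM (edgeR adjusted p = 6.6e-05), and HAT1, which acetylates new H4, rose from 60.7 ± 1.13 to 72.5 ± 0.43 CPM (adjusted p = 0.000249). Both kept the call after correction (0.16 and 0.15). TONSL and MCM2, which bind histones at replication forks, fell from 131 ± 15.9 to 101 ± 4.83 CPM and from 110 ± 8.08 to 92.4 ± 2.04 CPM (edgeR adjusted p = 3.36e-05 and 0.000353). Neither passed after correction (-0.07 and -0.09).

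Of 22 S phase genes, 8 were higher and 2 lower, with a median of 0.11, and after correction 9 were higher and 1 lower, with a median of 0.13. Both counts are 45.5% of the list, beside 29.6% of all genes and 42.4% of the deeper ones before correction and 15.2% and 22.8% after it. RRM2 and RRM1, the subunits of ribonucleotide reductase, rose from 112 ± 6.59 to 147 ± 3.30 CPM (edgeR adjusted p = 1.42e-06) and from 201 ± 5.87 to 235 ± 6.30 CPM (adjusted p = 0.000296), and both kept the call (0.33 and 0.14). UHRF1 fell by 0.21 (adjusted p = 0.0033) and by 0.12 after correction (adjusted p = 0.0396), whereas E2F1, lower by 0.18 before correction (adjusted p = 0.004), was at 0.09 after it (adjusted p = 0.059). With all 8 libraries edgeR called none of the genes in the 3 lists, and 1, 1 and 2 of them had an unadjusted p under 0.05.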

How the data were processed

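RNA sequencing covered 8 libraries of 1 cell line. The authors deposited a table of read counts per gene and a table of FPKM values (fragments scaled to gene length and sequencing depth), each with 16383 genes, of which 14707 are in both. Per the submitters' processing notes, the tools were featureCounts 1.5.0-p3, HISAT2 2.0.5, DESeq2 1.20.0, fastp and CASAVA 1.8, with no role stated for any. A mouse build is named in these notes, whereas the identifiers are human, and 18054 of the 18059 genes have the positions of GENCODE v29 (GRCh38). Dates in place of 24 gene names, none of them a histone gene, were replaced from the identifiers.

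Groups follow the sample titles. The deposited counts were analysed in edgeR 4.0.16 (R 4.3.3): low genes were removed by filterByExpr at a minimum count of 10 and a minimum total of 15, TMM factors were applied, and the quasi-likelihood test was run with Benjamini-Hochberg adjustment over all genes and a threshold of 0.05. Values are log2 fold changes with SE, and CPM with SD. The GC correction used as offsets each library's lowess trend (span 0.3) on the GC content of a gene's longest transcript, and the length correction added a trend on gene length. The histone genes, the 3 gene lists and the use of 7 libraries were chosen with earlier results of these data known. Described are the 2 replication-dependent genes of each family with the highest mean FPKM and the variants with a mean of at least 1 FPKM. The genes that passed with 7 libraries, up to 5 in either direction, are described too. Values are given for each of the 7 libraries, except for HIST2H2AC, HIST1H3C and HIST1H3B, which are given as ranges. With none past the threshold with 8 libraries, the 3 smallest p each way were added. Of each list, the 2 genes with the smallest p each way among those past the threshold are named. Alternatives were DESeq2 1.42.0, limma-voom (limma 3.58.1), other scalings and filters, limma on log2 FPKM with pseudocounts of 1 and 0.1, a block for replicate number, and leaving out libraries singly. Simulated counts served to test the scripts. No genome sequence of the build was used, so sequences come from GENCODE v29 transcripts and RefSeq.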

Additional observations from a re-analysis of the deposited data

Results flagged for a closer look

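In 15 of the 42 groups of 4 libraries looked at (21 described histone genes in 2 treatments), 1 library lay farther from the others than Dixon's criterion allows, and in each of the 15 it was vehicle replicate 3. Chance flags about 1 in 20 groups, and these 15 share that 1 library. In CPM after TMM scaling, vehicle replicate 3 was high among the variants for H1F0 (514), H1FX (146), H2AFJ (306), H2AFV (431), H2AFZ (526) and H3F3B (1445). It was high among the replication-dependent genes for HIST1H1C (216), HIST1H1E (5.27), HIST1H2AC (37.4), HIST2H2AC (4.38), HIST1H2BD (17.3), HIST1H3B (3.67), HIST1H4H (8.58) and HIST1H4I (29.5). It was low for HIST1H2BK (14.8), where the nearest other vehicle library had 52.0 CPM.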

How the results depend on the processing

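With all 8 libraries, leaving out vehicle replicate 3 gave 8 called histone genes and each other setting 0 (0 to 8 over the libraries left out). With 7 libraries the 8 calls became 4 with the GC correction, 4 with GC and length, 7 with the replicate block (4 higher, 3 lower) and 2 with the replicate block and GC correction, and 7 to 8 over the libraries left out. The other settings gave 8, but DESeq2 and the log2 FPKM settings lost HIST1H2BK and gained H3F3B. Over all 15647 genes tested, the uncorrected edgeR fit called 2106 higher and 2527 lower. The numbers were 1344 and 1035 with GC, and 1200 and 898 with GC and length. They were 1788 and 2305 with the replicate block, and 918 and 681 with the block and GC. Calls in the list of histone mRNA genes went from 12 to 7 with GC and length and to 5 with the replicate block and GC correction (9 to 13 over the libraries left out). Those of the chaperone list went from 17 to 7, 8 and 3 with GC, with GC and length, and with the block and GC (13 to 18), and those of the S phase list from 10 to 6 with the block and GC (9 to 12). Same-numbered libraries did not deviate together with 7 libraries (r of -0.01 to 0.02). With 8 libraries r was -0.06 to 0.18 for same-numbered pairs and -0.19 to 0.18 for the others. Whether the numbers pair libraries is not given in the sources used here, and so few pairs cannot decide it. The difference in the log2 ratio of the classes was -0.08 with 8 libraries and -0.04 with 7 (-0.11 to -0.036 and -0.068 to -0.013 over the libraries left out), and -0.21 and -0.25 with H2AFX among the replication-dependent genes.

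Signs of log2 fold changes differed from the uncorrected edgeR values in these settings, and the cause was not tested. With 7 libraries, the GC correction gave -0.051 (H2AFY), 0.075 (H2AFX), 0.076 (H1FX) and 0.081 (HIST1H2BK), and with the replicate block as well -0.058 (H2AFY), 0.061 (H2AFX), 0.073 (H1FX) and 0.083 (HIST1H2BK). GC and length gave -0.057 (HIST1H2AC), and the replicate block -0.098 (HIST1H3C). With 8 libraries, GC and length gave 0.032 (H1FX), 0.082 (HIST1H4I), 0.092 (H2AFX) and 0.14 (H2AFZ). Library totals gave 0.0094 (HIST1H2BD), 0.12 (HIST1H4I), 0.12 (H2AFY), 0.14 (H2AFV) and 0.20 (H2AFZ). limma-voom gave 0.017 (H2AFZ) and 0.022 (HIST1H4I). Log2(FPKM + 0.1) gave 0.054 (H2AFZ) and 0.013 (HIST1H4I), and log2(FPKM + 1), with or without a minimum mean of 1 FPKM, 0.054 (H2AFZ) and 0.0045 (HIST1H4I). The replicate block gave 0.033 (H2AFZ), and 0.016 (H2AFZ) with the GC correction. With 1 library left out, signs changed within the ranges -1.63 to 0.12 (HIST1H1C), -0.41 to 0.13 (HIST1H2AC), -1.11 to 0.19 (HIST2H2AC), -0.15 to 0.29 (HIST1H2BK), -0.87 to 0.021 (HIST1H3C), -0.95 to 0.19 (HIST1H3B), -0.29 to 0.33 (HIST1H4I), -0.53 to 0.31 (HIST1H4H), -0.11 to 0.24 (H2AFZ), -0.84 to 0.098 (H3F3B), -0.16 to 0.17 (H2AFV), -0.074 to 0.029 (H2AFY), -0.0097 to 0.21 (HIST2H2BE) with 8 libraries, and -0.022 to 0.35 (HIST2H2AC), -0.071 to 0.0030 (HIST1H2BD), -0.25 to 0.34 (HIST1H3C), -0.037 to 0.28 (HIST2H2BE) with 7.

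Depth limited the replication-dependent genes: 5 of the 17 tested had a mean of at least 200 counts, and only 17 of 33 were tested. HIST1H2BN has no FPKM value, so the FPKM settings give none for it.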

Other observations

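The tables also hold 8 histone-named rows that are not protein-coding, and none of them passed edgeR's test with 7 or 8 libraries. Among these, H1FX-AS1, which overlaps H1FX on the opposite strand, had 128 counts in vehicle replicate 3 and 24 to 51 in the other 7 libraries. HIST2H2BA had 2 counts in vehicle replicate 3 and 36 to 57 in the others.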
